A study of Mus musculus with 6 samples.

Results

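Granulosa cells are the somatic cells that line the ovarian follicle, and the genes described here encode 10 factors through which such cells can signal to blood and lymph vessels. The 10 genes were chosen by name, and their data are all 22 probe sets that the platform annotation assigns to one of them alone, out of 45101 probe sets and 18194 named genes on the array. Of the 10, 7 had a mean of at least 6 on the log2 scale (intensity 64) over the 6 arrays, a floor just above the array medians below which a probe set may show background alone: Vegfa, Vegfb, Vegfc, Nrp1, Angpt2, Efnb2 and Adm. The other 3, Pgf, Angpt1 and Fgf2, lay under it.

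Each array held RNA of granulosa cells from 23-day-old mice that had been given 5 IU of equine chorionic gonadotropin (eCG), a hormone that drives follicle growth, 48 h before. All groups shared that treatment. The wild type mice, and the mice labelled ERK1 knockout and ERK2 fl/fl;Cyp19CRE (called knockout here), were sampled either without human chorionic gonadotropin (hCG), referred to as 0 h, or 2.5 h or 4 h after a 5 IU dose of hCG, given in place of the luteinizing hormone surge that triggers ovulation. ERK1 and ERK2 are the last kinases of a MAP kinase cascade that this surge activates. In the knockout, ERK1 is labelled as absent, and ERK2 is removed where Cre driven by the Cyp19 (aromatase) promoter is active, so cells in which that promoter is silent keep ERK2. There was 1 array for each genotype and time, so a difference between a pair of arrays has no replicate error and no p-value. How many animals were pooled for an array was not given in the sources used here, and the transcripts of the targeted kinases were not analysed here.

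The preovulatory follicle has no vessels inside the granulosa layer. After the ovulatory surge, vessels grow from the surrounding theca into the granulosa layer as it turns into the corpus luteum. VEGF ligands bind receptor tyrosine kinases on endothelial cells. Vegfa acts mainly on blood vessels, Vegfc mainly on lymphatic vessels, and neuropilin-1 (Nrp1) is a coreceptor that strengthens VEGF binding. Angiopoietin-1 activates the endothelial receptor TIE2 and steadies vessels, whereas angiopoietin-2 can oppose it. Ephrin-B2 (Efnb2) is a membrane-bound ligand of Eph receptors that marks arterial endothelium and guides sprouting, and adrenomedullin (Adm) is a secreted peptide that widens vessels and supports lymphatic growth.

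Of the 10 members, 8 had a promoter entry among 32851 RefSeq promoters (GRCm38.p6). The 250 bases before the start site are shown for the 3 members with the highest folds in wild type after hCG: Efnb2 and Vegfc, which did not reach a 2-fold difference in knockout, and Vegfa, which was at least 2-fold higher at 4 h in both genotypes. Capitals mark the letters found by a search on both strands for GGGCGG (a GC box), TGACG (the core of the cAMP response element), TGANTCA (AP-1), ACGTG (the hypoxia response core) and TGTGGT (RUNX). TGACG and ACGTG can overlap.
Efnb2, chr8:8661243-8661492, minus strand: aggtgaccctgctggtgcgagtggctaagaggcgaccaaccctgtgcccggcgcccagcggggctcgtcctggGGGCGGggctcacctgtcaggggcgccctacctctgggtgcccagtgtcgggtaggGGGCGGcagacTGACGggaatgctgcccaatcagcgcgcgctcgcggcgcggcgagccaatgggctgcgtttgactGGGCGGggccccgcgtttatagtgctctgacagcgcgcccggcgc
Vegfc, chr8:54077282-54077531, plus strand: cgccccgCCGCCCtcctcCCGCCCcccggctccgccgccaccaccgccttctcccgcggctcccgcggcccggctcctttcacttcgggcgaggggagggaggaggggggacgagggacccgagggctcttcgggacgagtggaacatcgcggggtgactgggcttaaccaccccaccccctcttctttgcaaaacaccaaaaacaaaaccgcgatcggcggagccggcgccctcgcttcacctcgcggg
Vegfa, chr17:46032378-46032627, minus strand: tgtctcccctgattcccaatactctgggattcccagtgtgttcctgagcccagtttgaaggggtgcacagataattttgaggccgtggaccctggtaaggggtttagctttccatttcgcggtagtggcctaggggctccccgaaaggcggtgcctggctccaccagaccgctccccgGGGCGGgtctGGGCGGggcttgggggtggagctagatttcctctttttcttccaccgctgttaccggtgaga
The Efnb2 window held 3 GC boxes and 1 TGACG, the Vegfc window 2 GC boxes, and the Vegfa window 2 GC boxes. GC boxes occur in 32.7% of all promoter windows of the same length and TGACG in 17.8%. AP-1, hypoxia and RUNX letters, which occur in 6.75%, 16.6% and 14% of windows, were in 0 of these 3. Vegfa has a second start inside the gene, whose window (not shown) held a GC box, TGACG and ACGTG. A match of letters is a description of the sequence and not a site of binding. GC content was 72% for Efnb2, 71.6% for Vegfc and 59.2% for Vegfa, against a median of 52.4% over all windows.

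Among the members, Efnb2 showed the widest separation of the genotypes. The gene lies on chromosome 8 from 8617235 to 8661242 (GRCm38.p6). By its brightest probe set, intensity in wild type was 219 at 0 h, 926 at 2.5 h and 1910 at 4 h, and the knockout arrays read 237, 180 and 189 in the same order. The genotypes started close together, and both wild type arrays after hCG lay above all 3 knockout arrays. Relative to 0 h, the wild type values were up 4.23-fold (2.5 h) and 8.72-fold (4 h), whereas knockout was 1.32-fold and 1.25-fold lower. At 4 h the knockout array was 10.1-fold below wild type. A second probe set gave nearly the same series, at 73, 345 and 676 in wild type, against 89, 86 and 67 in knockout. The remaining pair of Efnb2 probe sets had means under the floor, ran from 53 to 67 and from 19 to 24 over the 6 arrays, and showed none of this pattern. With all 4 averaged, the wild type response at 4 h was 1.67 on the log2 scale, against 3.12 by the brightest.

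**Figure D1:**
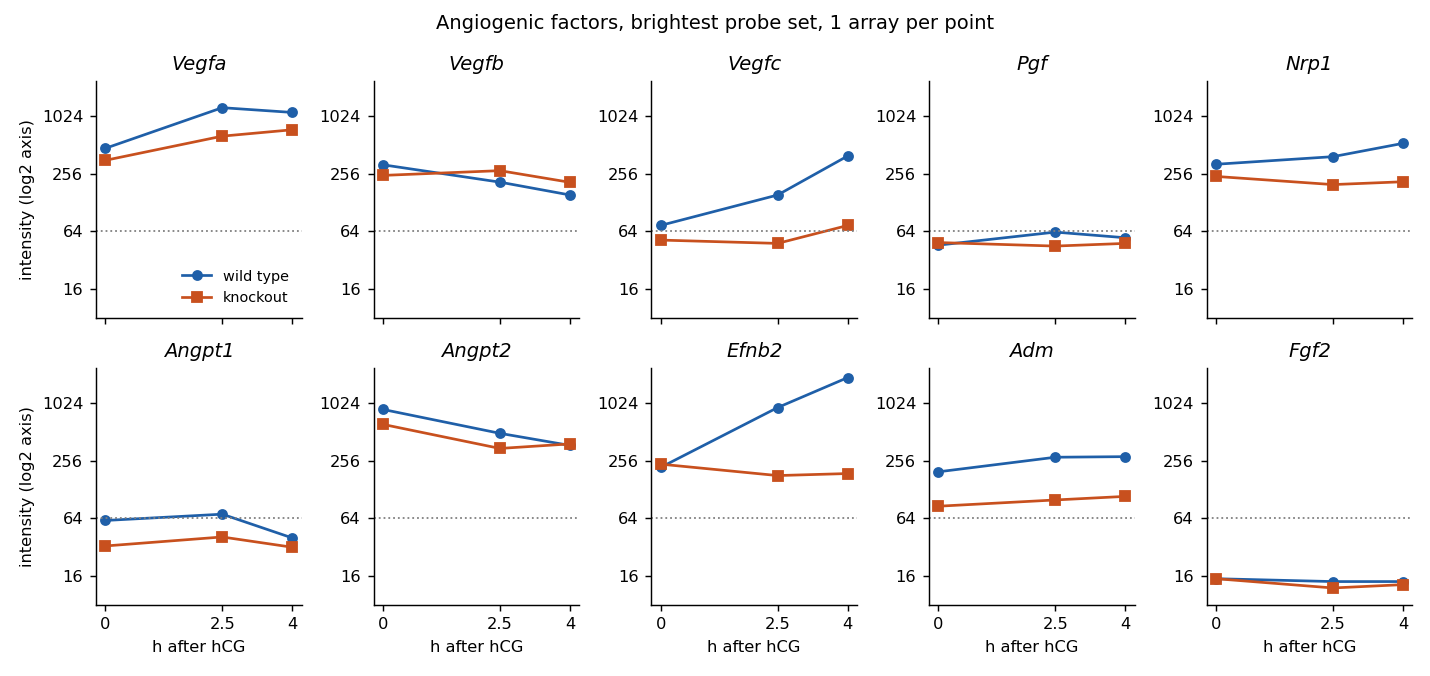
Intensity of the brightest probe set of each of the 10 members (log2 axis) against hours after hCG, with 1 array per point, wild type as blue circles and knockout as orange squares; the dotted line is the floor of 64. Efnb2 and Vegfc separate by genotype after hCG, Adm lies lower in knockout at all 3 times, and Pgf and Fgf2 stay under the floor on all 6 arrays.

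Vegfc, the lymphatic VEGF (chromosome 8, 54077532 to 54186454), followed the same order of arrays from a dim start. Its brightest probe set read 74, 154 and 395 in wild type at 0 h, 2.5 h and 4 h, and 52, 48 and 74 in knockout. Only the wild type arrays after hCG stood clearly over the floor, so folds against 0 h depend on the background. They were 2.08 at 2.5 h and 5.34 at 4 h in wild type, and 1.42 at 4 h in knockout, with 2.5 h there 1.08-fold lower. All 3 Vegfc probe sets agreed at 4 h, with log2 differences from 0 h between 2.24 and 2.42 in wild type and between 0.42 and 0.51 in knockout. Knockout minus wild type at 4 h was -2.42, -2.10 and -2.01 by the 3 probe sets.

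Vegfa (chromosome 17, 46016993 to 46032377), the main VEGF of blood vessel growth, was higher after hCG in both genotypes. Intensities were 474, 1263 and 1126 in wild type, against 355, 636 and 742 in knockout. Both later arrays exceeded the 0 h array in each genotype, and knockout lay below wild type at each time. The folds over 0 h were 2.66 and 2.38 in wild type, compared with 1.79 and 2.09 in knockout. The second Vegfa probe set gave smaller ones at 4 h, 1.47 and 1.73, on lower intensities (142, 309 and 209 in wild type, 96, 138 and 166 in knockout). At 2.5 h the knockout array was 1.99-fold below wild type by the brightest and 2.24-fold by the other. The gap at 4 h was 1.52-fold and 1.26-fold.

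Vegfb (chromosome 19, 6982472 to 6987651), a VEGF family ligand of the receptor VEGFR1, went the other way in wild type. Its single probe set read 319, 210 and 154 in wild type, against 247, 277 and 209 in knockout, so that wild type was the higher genotype at 0 h and the lower one after hCG. Wild type at 4 h was 2.07-fold below 0 h, and knockout 1.18-fold. With cyclic loess, another way to scale the arrays, the wild type log2 difference at 4 h was -0.88 in place of -1.05, short of 2-fold. Pgf (placental growth factor, chromosome 12), another VEGFR1 ligand, ranged from 45 to 63, always under the floor.

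Nrp1 (chromosome 8, 128358591 to 128505476) had modest differences in opposite directions. The brightest probe set gave 323, 388 and 535 in wild type, against 241, 198 and 212 in knockout. All 3 wild type values lay above all 3 knockout values. Wild type at 4 h was 1.66-fold above 0 h and knockout 1.14-fold below. Of the 4 Nrp1 probe sets, each was higher in wild type at 4 h than at 0 h (log2 differences 0.73 to 0.95) and each was lower in knockout (-0.43 to -0.17). At 4 h knockout lay 2.47-fold to 2.65-fold below wild type by the 3 probe sets with a mean over the floor, and 2-fold below by the other.

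The angiopoietins showed another course. Angpt2 (chromosome 8, 18690263 to 18741562) read 886, 498 and 372 in wild type, against 618, 346 and 386 in knockout by its brightest probe set. The arrays after hCG lay below 0 h in each genotype, and the genotypes overlapped after hCG. Folds below 0 h were 1.78 and 2.38 in wild type, compared with 1.79 and 1.60 in knockout. The second Angpt2 probe set read 20 to 26 and carried no usable signal. Angpt1 (chromosome 15) was dim: its brighter probe set read 61, 71 and 40 in wild type, against 33, 41 and 32 in knockout, over the floor on 1 array, and its other probe set read 19 to 25.

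Adm (chromosome 7, 110627657 to 110629820) was the 1 member whose genotypes already lay at least 2-fold apart before hCG. Its brightest probe set read 197, 280 and 284 in wild type, against 86, 100 and 109 in knockout, without overlap. Knockout lay 2.29-fold below wild type at 0 h, 2.80-fold at 2.5 h and 2.61-fold at 4 h. The responses to hCG were small in both, 1.42-fold and 1.44-fold in wild type and 1.16-fold and 1.27-fold in knockout. The other Adm probe set, at 67, 99 and 74 against 31, 32 and 43, had a mean under the floor and the same order of genotypes at each time. Fgf2 (basic fibroblast growth factor, chromosome 3) read 12 to 15 on the 6 arrays.

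**Figure D2:**
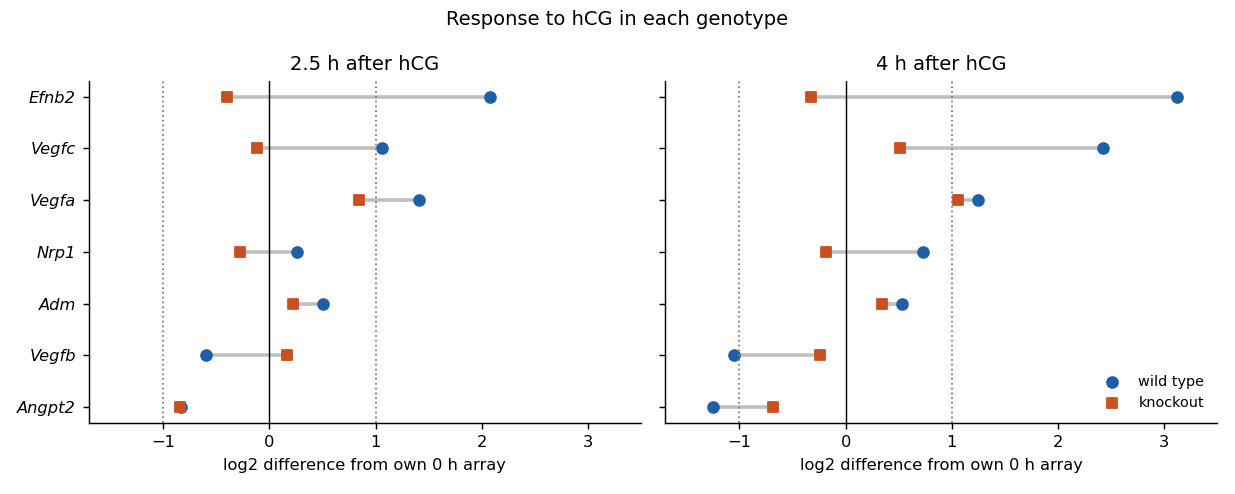
Log2 difference of each array after hCG from the 0 h array of its own genotype, by the brightest probe set, for the 7 members with a mean log2 of at least 6 (wild type blue circles, knockout orange squares, dotted lines at 2-fold). Efnb2 has the longest bar at both times, 2.08 against -0.40 at 2.5 h and 3.12 against -0.33 at 4 h, and the Angpt2 symbols overlap at 2.5 h.

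Counted by a rule of size, a gene differed when a pair of arrays stood at least 2-fold apart with the brighter one at intensity 64 or more. Wild type at 2.5 h had 3 of 10 members higher than at 0 h (Vegfa, Vegfc and Efnb2), beside 3.54% of all genes that could be called, and 0 lower, beside 1.03%. Vegfc passed there by its brightest probe set alone, since the other pair gave 1.88-fold and 1.94-fold. At 4 h the same 3 were higher, beside 5.47%, and Vegfb and Angpt2 were lower, beside 9.04%. From 2.5 h to 4 h in wild type, Efnb2 and Vegfc were again higher, by 2.06-fold and 2.56-fold, beside 1.61%, and 0 members were lower, beside 1.91%. In knockout at 2.5 h, 0 members were higher, beside 3.42%, and 0 lower, beside 3.77%. At 4 h, 1 was higher in knockout, Vegfa, beside 3.89%, and 0 lower, beside 4.85%. From 2.5 h to 4 h in knockout no member passed in either direction, beside 0.462% of genes higher and 0.533% lower. Wild type and knockout comparisons with 0 h each reuse 1 array as their base. Over the 7 members at or over the floor, the median log2 difference at 4 h from 0 h was 0.73 in wild type and -0.18 in knockout, beside -0.21 and 0.02 over all 11153 genes with such a mean.

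The knockout 0 h array was the one highest in oocyte transcripts. All of 9 oocyte markers were higher there than in wild type at 0 h, with summed intensities of 26522 and 13982. With the wild type 0 h array as the base for knockout instead, a setting chosen after seeing the data, Vegfa was at 0.42 and 0.65 (log2) at 2.5 h and 4 h, Efnb2 at -0.28 and -0.21, and Vegfc at -0.62 and 0.00. By that base 0 members were at least 2-fold higher at either time, beside 2.81% and 2.96% of all genes. Angpt2 was the 1 member lower at both (-1.36 and -1.20), beside 2.39% and 2.86%.

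Between genotypes, the members lay mostly lower in knockout. At 0 h, 1 member was at least 2-fold lower, Adm, beside 0.908% of genes, and 0 higher, beside 0.811%. At 2.5 h, Vegfc, Efnb2 and Adm were lower, beside 3.08%, and 0 higher, beside 1.48%. Vegfa and Nrp1 stood just short of 2-fold there and passed with cyclic loess (log2 -1.14 and -1.09), which makes 5 lower, beside 3.72% of all genes under that scaling. At 4 h, Vegfc, Nrp1, Efnb2 and Adm were lower, beside 4.15%, and 0 higher, beside 4.99%. The medians over the 7 members were -0.42, -0.99 and -1.34 (log2) at the 3 times, beside -0.03, 0.14 and 0.20 over all 11153 genes. Vegfb was the exception after hCG, 1.32-fold and 1.36-fold higher in knockout, and Angpt2 was 1.04-fold higher at 4 h.

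**Figure D3:**
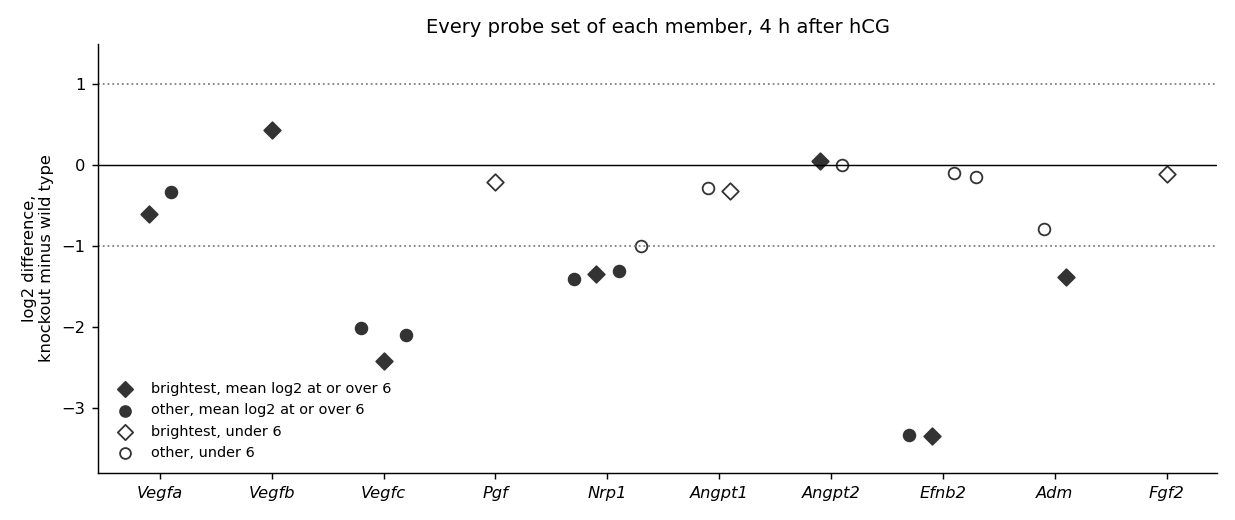
Log2 difference of knockout from wild type at 4 h for all 22 probe sets (diamonds, the brightest of a gene; circles, the others; open symbols, mean log2 under 6; dotted lines at 2-fold). The 3 Vegfc probe sets and the 4 Nrp1 probe sets lie close together, while the 4 Efnb2 probe sets split into 2 near -3.3 and 2 near 0.

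Across all 6 arrays, limma fitted 3 contrasts over the 11153 genes with Benjamini-Hochberg adjustment. With no replicate arrays, the residual comes from how a difference varies over the times or the genotypes, and the spread between animals is not in these p-values. For the hCG response over both genotypes, Vegfa rose by a log2 difference of 1.14 (SE 0.17, adjusted p = 0.0231), higher on 4 of 4 arrays after hCG than on the 0 h array of its genotype. Angpt2 fell by 0.90 (SE 0.18, adjusted p = 0.0363), lower on 4 of 4. These were the 2 members called, 1 in each direction, beside 3.44% of genes called higher and 6.73% lower. The Angpt2 call did not hold in 3 of 6 alternatives, where adjusted p reached 0.088. Vegfa kept its call in all 6, with adjusted p from 0.0169 to 0.0452.

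Over the 3 times, the genotype difference was -1.35 for Adm (SE 0.14, adjusted p = 0.0561), -1.86 for Efnb2 (SE 0.61, 0.243) and -1.54 for Vegfc (SE 0.34, 0.172). For Nrp1 it was -0.91 (SE 0.20, 0.162) and for Vegfa -0.67 (SE 0.16, 0.187). Knockout was lower at 3 of 3 times in each of these except Efnb2, with 2 of 3. No member passed the 0.05 threshold in limma, beside 0.0269% of all genes called lower and 0.00897% called higher. At an unadjusted p under 0.05 there were 5 of 7 members and 17.4% of all genes. Adm passed when the floor was set at log2 7 (adjusted p = 0.0381) and ranged up to 0.122 over the alternatives.

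Whether the response to hCG differed between genotypes was tested by the interaction. For Efnb2, knockout minus wild type was -2.96 (SE 0.62, unadjusted p = 0.0049, adjusted p = 0.516). For Vegfc it was -1.54 (SE 0.85, adjusted p = 0.572), for Nrp1 -0.73 (SE 0.34, 0.552) and for Vegfa -0.38 (SE 0.27, 0.624). None of the 7 members, and 0 of 11153 genes, passed in limma after adjustment. Unadjusted, 1 of 7 members and 9.1% of all genes were under 0.05. With 2 residual degrees of freedom, an adjusted p above the threshold does not show that the responses were alike.

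Markers of other cells bear on how these values can be read, since several members are also made outside granulosa cells. In such a preparation, fewer cells of a type and less RNA per cell cannot be told apart. All of 9 measured granulosa markers were over the floor, with Inhba, a subunit of activin and inhibin, between 23868 and 34790. Their summed intensity was 120677, 89348 and 68940 in wild type, against 115064, 140034 and 137744 in knockout. At 4 h in wild type, 5 of the 9 were at least 2-fold lower than at 0 h, beside 9.04% of all genes. None was higher, beside 5.47%. The 5 were Inhbb (8.56-fold), Fshr (6.29-fold), Hsd17b1 (3.71-fold), Foxl2 (2.93-fold) and Amhr2 (2.41-fold). Inha and Inhba were 1.11-fold and 1.16-fold lower. In knockout 0 passed in either direction at 4 h, beside 3.89% higher and 4.85% lower. Of 16 endothelial markers, 8 had a mean at or over the floor, and the summed intensity of all 16 was 1765, 2607 and 2100 in wild type, against 1663, 1667 and 1733 in knockout. Single endothelial markers differed in level. Pecam1 (27 to 32), Vwf (21 to 35) and Tie1 (20 to 25) stayed under the floor on every array. Cdh5 (67 to 163), Esam (205 to 436), Eng (111 to 191) and Egfl7 (125 to 215) stayed over it on every array. At 2.5 h, Cldn5 was 2.46-fold and Cdh5 2.01-fold lower in knockout, and 8 of the 8 markers over the floor lay below wild type, as they did at 4 h. The endothelial sum in wild type was 1.48-fold its 0 h value at 2.5 h and 1.19-fold at 4 h. Kdr, 1 of the 16 markers, read 205, 452 and 457 there. Of 9 pericyte and smooth muscle markers (summed 3492 to 5561 over the 6 arrays), 6 were over the floor. In knockout, 5, 6 and 5 of these lay below wild type at the 3 times. Their medians were -0.32, -0.54 and -0.33 (log2), beside -0.03, 0.14 and 0.20 over all genes. Among these markers Pdgfrb was 2.03-fold, 5.74-fold and 2.69-fold lower in knockout at the 3 times. Of 5 measured theca markers, 4 were over the floor, and in knockout after hCG 1 of these lay above wild type and 3 below. Their medians were -0.36 and -0.19 (log2) at 2.5 h and 4 h, beside 0.14 and 0.20 over all genes. The 1 above was Cyp17a1, the enzyme that starts androgen synthesis, at 14251 and 13997 against 2037 and 1399, and it alone lifted the summed theca intensity to 16115 and 16382 against 4859 and 4333. Ptch1, a hedgehog receptor, was at 1060 and 1540 in knockout against 1789 and 1868. Leukocyte markers summed to between 1334 and 1399 in wild type and between 1402 and 1875 in knockout, and surface epithelium markers to between 2424 and 2837 and between 2629 and 3552. Of 6 surface epithelium markers over the floor, 4, 5 and 5 lay above wild type in knockout at the 3 times (medians 0.34, 0.50 and 0.50, log2). At least 2-fold higher were 1, 1 and 2, beside 0.811%, 1.48% and 4.99% of all genes, and 0 were 2-fold lower, beside 0.908%, 3.08% and 4.15%. Krt7 was 2.93-fold, 2.96-fold and 2.45-fold higher, and Msln 2.08-fold at 4 h. The part of these other cells in the members' differences was not tested. Signal of Gapdh at its 3' end over that at its 5' end, which rises as RNA degrades, ran from 3.55 to 5.21 and was highest on both 0 h arrays.

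**Figure D4:**
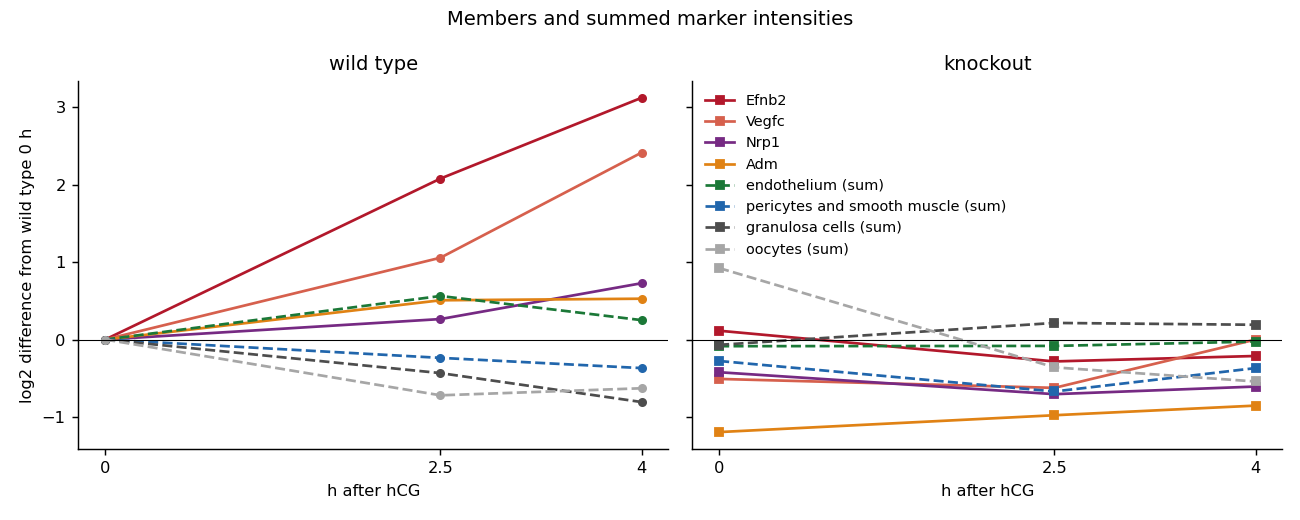
Log2 difference from the wild type 0 h array for 4 members (solid lines, brightest probe set) and for the summed intensities of 4 marker lists (dashed lines) in wild type (left) and knockout (right), against hours after hCG. In wild type, Efnb2 and Vegfc reach 3.12 and 2.42 at 4 h. In knockout the oocyte sum is the highest line at 0 h. The part of the marked cells in the members' differences was not tested.

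The receptors of these factors moved in both directions. Of 24 receptors and partners listed, 23 were measured and 20 were at or over the floor. In knockout at 2.5 h, 2 were at least 2-fold higher, beside 1.48% of all genes, and 2 lower, beside 3.08%. At 4 h, 1 was higher, beside 4.99%, and 2 lower, beside 4.15%. Of those called at 2.5 h, Flt1 had a mean under the floor. Among the 20, 12 lay below wild type and 8 above at 2.5 h, and 14 below and 6 above at 4 h. Their medians were -0.16 and -0.19 (log2), beside 0.14 and 0.20 over all 11153 genes. Kdr (VEGFR2), the main signalling receptor of Vegfa, read 205, 452 and 457 in wild type, against 299, 276 and 282 in knockout. Flt1 (VEGFR1) read 46, 121 and 70 in wild type and 36 to 46 in knockout, over the floor on 2 arrays. Both of these receptors also stand on the endothelial list. Flt4 (VEGFR3), the receptor of Vegfc, was 2.05-fold lower in wild type at 4 h than at 0 h.

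Partners of the Adm receptor differed by genotype in opposite directions. Ramp3, which turns the receptor Calcrl into an adrenomedullin receptor, read 99, 209 and 247 in wild type, against 86, 99 and 101 in knockout. That left knockout 2.11-fold and 2.45-fold lower after hCG. Ramp1, which turns Calcrl into a receptor for a related peptide, was higher in knockout at all times, at 771, 914 and 728 against 375, 456 and 409. Calcrl itself was lower after hCG in both genotypes (282, 168 and 187; 225, 117 and 104). Among Eph receptors, Epha4, which can bind Efnb2, read 112, 936 and 1031 in wild type, against 141, 1044 and 316 in knockout. Both genotypes were high at 2.5 h, and the knockout was 3.26-fold lower at 4 h. Ephb4, the usual partner of Efnb2 on veins, ran from 169 to 246. Fgfr4, a fibroblast growth factor receptor, was 2.20-fold and 2.70-fold higher in knockout after hCG.

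Of 29 other angiogenic ligands listed, 28 were measured and 18 were at or over the floor. Among the 28, 4 were at least 2-fold lower in knockout at 2.5 h, beside 3.08% of all genes, and 0 higher, beside 1.48%. At 4 h, 4 were lower, beside 4.15%, and 1 higher, beside 4.99%. Of those called at 4 h, Esm1, Sema3a and Vegfd had means under the floor. Medians over the 18 were -0.36 and -0.38 (log2), beside 0.14 and 0.20 over all 11153 genes. Edn2 (endothelin-2), a vessel-constricting peptide, read 54, 345 and 204 in wild type, against 24, 37 and 22 in knockout. Esm1 (endocan), a secreted proteoglycan, read 15, 31 and 160 in wild type and 12 to 14 in knockout. Sema3a, a semaphorin that binds Nrp1, stood over the floor on 1 array, wild type at 4 h (97, against 22 to 31 on the other 5). All 3 were over the floor only in wild type after hCG, Edn2 on both arrays and Esm1 and Sema3a at 4 h alone. Their folds thus depend on the background in knockout. Angptl4 was 2.09-fold lower in knockout at 4 h, and Ccn2 2.24-fold and Edn1 2.82-fold lower at 2.5 h. Pdgfa was at least 2-fold higher at 4 h in both genotypes (2.18 and 2.36).

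Inhibitors of angiogenesis also lay mostly lower in knockout than in wild type. Of 12 measured, 8 were over the floor, and 7 of these 8 were below wild type at each of the 3 times, with medians of -0.73, -0.41 and -0.39 (log2), beside -0.03, 0.14 and 0.20 over all genes. At least 2-fold lower were 3 at 0 h, 1 at 2.5 h and 2 at 4 h, beside 0.908%, 3.08% and 4.15% of all genes. At each time 0 were higher, beside 0.811%, 1.48% and 4.99%. Sparc, a matrix protein that binds growth factors, was lower at each time (2.18-fold, 2.88-fold and 2.33-fold). Spred1 was the other inhibitor called lower at 4 h (2.06-fold). Thbs1 (thrombospondin-1) was 2.29-fold lower at 0 h, at 703 against 1607, and 1.11-fold at 4 h. Adamts1, a protease that also inhibits VEGF, was 2.64-fold and 2.70-fold higher at 4 h than at 0 h in wild type and knockout. In knockout, 3 inhibitors were at least 2-fold higher at 2.5 h than at 0 h, beside 3.42% of all genes. At 4 h there were 4, beside 3.89%. In wild type, Adamts1 was the 1 higher at each time, beside 3.54% and 5.47%. None was 2-fold lower at either time, beside 3.77% and 4.85% in knockout and 1.03% and 9.04% in wild type. At 4 h in knockout, Timp3 was 4.42-fold and Col18a1 3.28-fold above 0 h, and Timp3 was 1.76-fold above wild type. Genes of the hypoxia pathway, which acts on Vegfa, Adm and other members, went both ways. Of 18 listed, 17 were over the floor. At 2.5 h, 1 was at least 2-fold higher in knockout, beside 1.48% of all genes, and 1 lower, beside 3.08%. At 4 h, 1 was higher, beside 4.99%, and 1 lower, beside 4.15%. Medians over the 17 were 0.37 and 0.06 (log2), beside 0.14 and 0.20 over all genes. Slc2a1, the glucose transporter GLUT1, was 4.41-fold and 6.43-fold lower in knockout after hCG, whereas Ddit4 was 4.22-fold and 2.97-fold higher. Egln3, a prolyl hydroxylase that marks HIF proteins for breakdown, was at least 29-fold above 0 h on all 4 arrays after hCG. Its 0 h values, 36 in wild type and 27 in knockout, lay under the floor, so these folds depend on the background. Hif1a itself read 6732, 8244 and 10185 in wild type, against 7257, 5118 and 6531 in knockout.

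**Figure D5:**
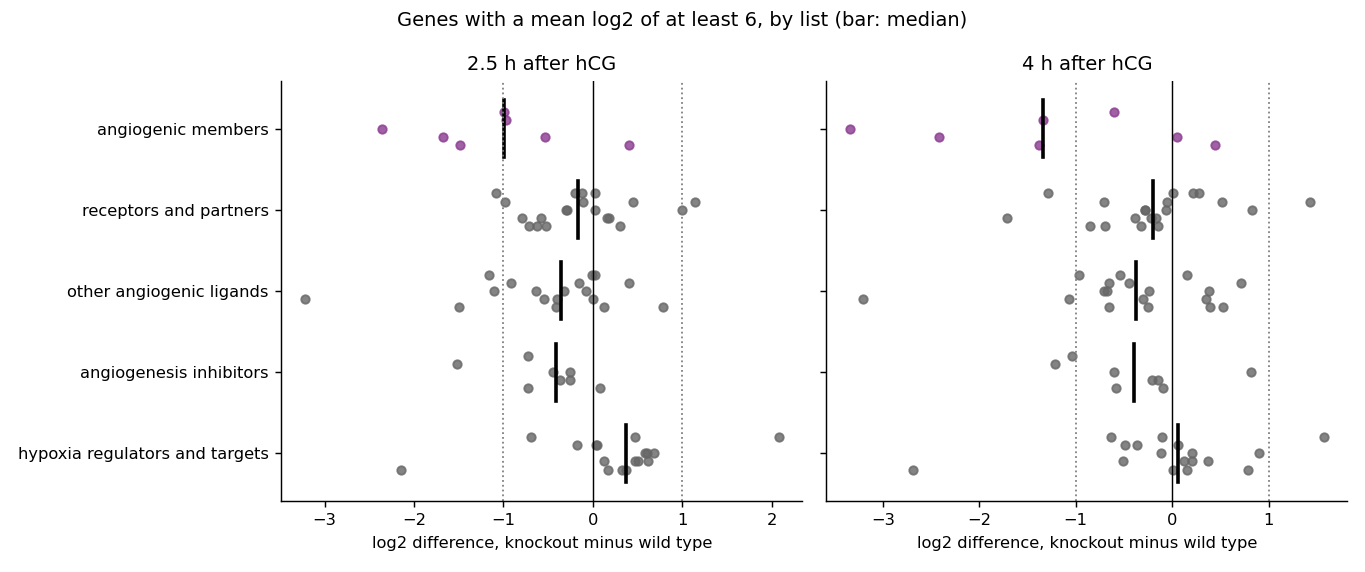
Log2 difference of knockout from wild type at 2.5 h and 4 h for the genes of 5 lists with a mean log2 of at least 6 (points, 1 gene each; black bars, list medians; dotted lines at 2-fold). The medians of the 7 angiogenic members are -0.99 and -1.34, and those of the 20 receptors and partners are -0.16 and -0.19.

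Genes with the most similar course over the 6 arrays were sought among 3063 genes that varied at least 2-fold. With only 6 arrays scaled together, and so many candidates, correlations this high are a description and carry no test. Closest to Efnb2 were Tac1, the precursor of substance P (Pearson r = 0.999; 653, 3756 and 9712 in wild type, 508 to 610 in knockout), Rdh10, a retinol dehydrogenase (0.998), and Vstm5 (0.996). For Vegfc they were Fgl2 (0.996), the potassium channel Kcnk5 (0.996) and Bves (0.995). Nrp1 was followed by Sdc1, a cell surface proteoglycan (0.989), Phlda1 (0.988) and Slc2a1 (0.987), and Adm by Cemip, a hyaluronan-degrading protein (0.998), Gask1b (0.988) and Unc5b, a netrin receptor (0.986). Vegfa was nearest to Wdyhv1 (0.997), Sc5d, an enzyme of cholesterol synthesis (0.993), and the immediate early gene Ier2 (0.990). Angpt2 was nearest to Ntn4, a netrin (0.987), Mtarc2 (0.979) and Abcd2 (0.977), and Vegfb to Pafah1b3 (0.986), Decr2 (0.983) and Fam3a (0.981). Among the members themselves, r was 0.96 between Efnb2 and Vegfc, 0.92 between Efnb2 and Nrp1, 0.76 between Efnb2 and Vegfa, and -0.24 between Efnb2 and Angpt2.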

How the data were processed

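RNA of granulosa cells was hybridised to 6 Affymetrix arrays, 1 per genotype and time. The deposited values are intensities per probe set on a linear scale, and per the submitters' processing notes they come from RMA in affy. Its version is not given in the sources used here. They are whole numbers from 9 to 59425 with medians of 54 or 55, and quantile scaling in RMA hides changes in total RNA. The log2 of each intensity was taken. Of 45101 probe sets, 34958 name 1 gene, 932 several and 9211 none. Of several probe sets for 1 gene, the one brightest on average (mean log2) stood for it. Counts of size used the genes whose brighter array of the pair reached log2 6; medians and limma used those whose mean did. The members and gene lists were chosen with earlier results of these data known. Named genes were all members, up to 4 genes at least 2-fold different per list and comparison, fixed cell markers, and the 3 genes most like each member by Pearson r; Ephb4 and Hif1a were added outside that rule. limma 3.58.1 in R 4.3.3 fitted an additive model of genotype and time, and a model of 4 cells for the interaction, each with 2 residual degrees of freedom, tested on simulated data first, with Benjamini-Hochberg adjustment at 0.05. Alternatives were cyclic loess, the mean of all probe sets, no floor, a floor of log2 7, log2(intensity + 32) and, in limma, an intensity trend. The labels give no separate animals or cultures. The precision is limited by the number of arrays.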

Additional observations from a re-analysis of the deposited data

Results flagged for a closer look

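By the brightest probe set, the response to hCG ran in opposite directions in the genotypes for 2 members. Both wild type arrays after hCG lay above their 0 h array and both knockout arrays below theirs. The interaction contrast (knockout minus wild type, log2) was -2.96 for Efnb2 and -0.73 for Nrp1, and neither passed in limma after adjustment (adjusted p = 0.516 and 0.552; over the alternatives 0.446 to 0.579 and 0.46 to 0.609). The brightest Nrp1 probe set was 1.22-fold and 1.14-fold below 0 h in knockout, and that of Efnb2 1.32-fold and 1.25-fold. The opposite direction thus rests on small differences in knockout. With all probe sets averaged, Efnb2 in knockout was at 0.01 and -0.10 (log2) at 2.5 h and 4 h. Another Nrp1 probe set was at 0.01 in knockout at 2.5 h.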

How the results depend on the processing

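Counts of members past 2-fold or called by limma were compared with 130 alternative values, of which 116 stayed within 1.5 times. These 116 include counts of 0 that stayed at 0 and changes from 3 to 2, so they do not measure stability. For single members there were 426 alternative values, and no called difference changed sign. Differences between 2 arrays short of 2-fold in the main setting were not counted in this, and some changed sign. With the mean of all probe sets, Efnb2 in knockout at 2.5 h went from -0.40 to 0.01. Adm in wild type from 2.5 h to 4 h went from 0.02 to -0.20. The settings that change only the floor leave such differences as they were. Shares in parentheses are over all genes under the same setting. With cyclic loess, 1 member was lower in wild type at 4 h than at 0 h (5.85%), 5 were lower in knockout at 2.5 h (3.72%), and 0 were called lower by limma after hCG (2.89%). With the mean of all probe sets, 1 was lower in wild type at 4 h than at 0 h (5.78%), 1 was higher from 2.5 h to 4 h (1.30%), 0 were higher in knockout at 4 h (3.08%), and 0 were called lower after hCG (4.15%). With log2(intensity + 32), 1 was lower in wild type at 4 h (6.60%) and 0 lower in knockout at 0 h (0.564%, Adm at -0.96). With no floor, 0 were called lower after hCG (1.34%), and with a floor of log2 7, 1 was called lower in knockout over the 3 times (0.309%). Against the wild type 0 h array, a setting chosen after seeing the data, knockout had 1 member down at 2.5 h (2.39%), and at 4 h 0 up (2.96%) and 1 down (2.86%). The causes were not tested. Cyclic loess moved the median of all genes from -0.22 to -0.05 in wild type at 2.5 h, from -0.21 to -0.04 at 4 h, and from 0.20 to 0.03 for knockout against wild type at 4 h. Over all genes, the count of those up against down in wild type changed from 407 against 118 to 491 against 50 (2.5 h) and from 632 against 1045 to 757 against 678 (4 h). For knockout against wild type it changed from 169 against 352 to 125 against 426 (2.5 h) and from 572 against 476 to 360 against 549 (4 h). Vegfc had no value in the fits with a floor of log2 7, since its mean is lower. No paired analysis was possible because the labels give no replicate numbers and each genotype and time has 1 array; the additive model compares the genotypes within each time. Signal near background limits Pgf, Angpt1 and Fgf2 and the 0 h values of Vegfc.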
